A study of Mus musculus with 15 samples.

Results

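De novo lipogenesis makes fatty acids from citrate, and desaturases then place double bonds in them. The 10 mouse genes described here cover that route: Acly, Acaca, Fasn, Me1, Elovl6, Scd1, Fads1, Fads2, Srebf1 and Thrsp. They were picked by gene symbol as members of the route, with earlier results of these data known, so their values are a description. All 10 were found among the 56953 genes of each deposited table. RNA was measured by bulk sequencing in 15 libraries from wild-type mice of strain 129, labelled as 10-week-old males, with 10 animals in the study. Muscle stem cells (MuSCs), which rebuild injured fibres, gave 3 libraries after transplantation of the animal's own MuSCs and 3 before it, from mice 5, 6 and 11. The cells after transplantation came by biopsy from a region that had received none, so they are endogenous cells. Quadriceps femoris gave 6 libraries of transplanted animals and 3 of animals with a sham operation. The treatment entry of the sham libraries also names transplantation, so their titles set them apart. Libraries are named by group and mouse number, such as sham 12.

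The order of the enzymes is known from textbooks. Acly, ATP citrate lyase, splits cytosolic citrate into acetyl-CoA, Acaca, acetyl-CoA carboxylase, makes malonyl-CoA, and Fasn, fatty acid synthase, joins these units into palmitate with NADPH that Me1, the cytosolic malic enzyme, helps to supply. Elovl6 lengthens palmitate, Scd1 makes monounsaturated fatty acids, and Fads1 and Fads2 are the delta-5 and delta-6 desaturases of polyunsaturated fatty acid synthesis. Srebf1 encodes SREBP-1, a transcription factor that activates many of these genes in liver and fat, and Thrsp (Spot 14) is a small regulator of lipogenesis abundant in lipogenic tissues. In mouse, adipose tissue and liver are the main sites of the route, while skeletal muscle fibres make little fat themselves and lie beside adipocytes between and around them.

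Promoter sequences are shown for Fasn, Acly, Elovl6 and Thrsp, 4 genes that varied over a wide range between quadriceps libraries, and for Me1, which varied least. Each window runs from 250 bases before to 50 bases after the start annotated by RefSeq on GRCm38.p6, is written 5′ to 3′ on the gene's own strand, and has in capitals the bases of CCAAT boxes (CCAAT) and GC boxes (GGGCGG) on either strand.
Fasn, chr11:120824498-120824797, minus strand: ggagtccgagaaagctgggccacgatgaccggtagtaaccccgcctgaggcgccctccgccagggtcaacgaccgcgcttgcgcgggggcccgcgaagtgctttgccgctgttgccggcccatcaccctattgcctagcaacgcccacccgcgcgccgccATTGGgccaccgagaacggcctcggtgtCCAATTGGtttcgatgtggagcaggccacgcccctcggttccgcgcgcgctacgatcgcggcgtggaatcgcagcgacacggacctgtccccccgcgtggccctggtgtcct
Acly, chr11:100527951-100528250, minus strand: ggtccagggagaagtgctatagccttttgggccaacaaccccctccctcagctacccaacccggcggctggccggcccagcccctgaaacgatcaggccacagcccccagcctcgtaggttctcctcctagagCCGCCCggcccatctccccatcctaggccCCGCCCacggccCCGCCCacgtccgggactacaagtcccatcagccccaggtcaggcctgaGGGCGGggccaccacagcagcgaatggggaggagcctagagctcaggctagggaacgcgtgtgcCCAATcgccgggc
Elovl6, chr3:129532136-129532435, plus strand: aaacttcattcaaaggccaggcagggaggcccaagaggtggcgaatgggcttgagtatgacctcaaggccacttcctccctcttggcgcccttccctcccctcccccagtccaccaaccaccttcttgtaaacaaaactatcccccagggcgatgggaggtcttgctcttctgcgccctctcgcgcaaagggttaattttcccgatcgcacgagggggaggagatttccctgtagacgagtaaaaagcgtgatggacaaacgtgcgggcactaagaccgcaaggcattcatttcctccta
Thrsp, chr7:97417501-97417800, minus strand: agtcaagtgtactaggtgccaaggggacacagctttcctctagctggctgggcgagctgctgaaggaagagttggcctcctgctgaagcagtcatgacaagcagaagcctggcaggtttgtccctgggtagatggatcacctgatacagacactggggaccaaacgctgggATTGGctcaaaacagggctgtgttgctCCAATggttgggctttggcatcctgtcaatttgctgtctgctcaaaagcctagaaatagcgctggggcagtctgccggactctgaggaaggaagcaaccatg
Me1, first of its annotated starts, chr9:86695865-86696164, minus strand: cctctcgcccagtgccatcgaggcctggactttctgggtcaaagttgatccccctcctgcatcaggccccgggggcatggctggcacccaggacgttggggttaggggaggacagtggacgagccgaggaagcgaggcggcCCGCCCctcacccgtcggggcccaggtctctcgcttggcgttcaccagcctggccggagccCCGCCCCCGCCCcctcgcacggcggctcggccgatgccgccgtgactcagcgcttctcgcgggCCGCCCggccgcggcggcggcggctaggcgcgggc

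RefSeq gave 11 windows for 8 of the genes; Scd1 and Fads1 were not searched. A CCAAT box, the element bound by NF-Y, lay in 6 of the 11 windows, against 37.4% of all 32851 mouse windows of this length. In Fasn 2 of its 3 boxes overlap, since CCAATTGG reads as CCAAT on both strands. The GC box, the element of Sp1 and related factors, lay in 5 windows, against 35.7% of all. Acly held 4 GC boxes and a CCAAT box, the Me1 window held only GC boxes, and the Elovl6 window held neither. The sterol regulatory element letters TCACNCCAC (1.24% of all windows) and the E-box CACGTG (7.15%) were found in none of the 11. Nor was a direct repeat of AGGTCA with 4 bases between the repeats, the LXR element (0.0152%), or with 1 base between them, the PPAR element (0.0396%). A match is a match of letters and not a bound site, and the motifs were searched on both strands.

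Total estimated counts were 17.09 to 22.98 M per library (M for mega). Sex-linked genes went against the male label in 14 libraries, which held 30.4 to 842 CPM of Xist and at most 1.18 CPM summed over 4 Y-linked genes. CPM are counts relative to the library total, scaled here by edgeR's TMM factors. The other library, transplanted 4, held 0.0931 CPM of Xist and 0.791 CPM of the Y-linked genes. That Y-linked sum lay within the range of the other libraries, so transplanted 4 held little of either and does not bear out the male label. The quadriceps libraries came in 2 separately deposited tables. The 2-sham table holds transplanted 4, 14 and 94 with sham 3 and 192, and the 1-sham table holds transplanted 5, 6 and 11 with sham 12. Myofibre markers summed to 116126 to 139586 CPM over the transplanted and 110078 to 117655 CPM over the sham libraries. MuSC markers such as Pax7 and Myod1 summed to 1346 to 3455 CPM in MuSCs after and 1749 to 2852 CPM before.

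The quadriceps comparison asked how muscle of transplanted mice differed from sham-operated muscle. In the fit across all genes, 9 of the 10 genes were lower in transplanted muscle, where 50.1% of the 14375 genes tested were lower and 49.9% higher, and their median log2 difference was -1.38, against -0.000501 over all genes tested. None of the 10 passed edgeR's quasi-likelihood test with Benjamini-Hochberg adjustment, and neither did any other gene (percent called 0, 1018 genes at an unadjusted p under 0.05, smallest adjusted p 0.423). An unadjusted p under 0.05 in the lower direction was reached by 8 of the 10, against 4.08% of all genes tested, and in the higher direction by 0 of the 10, against 3.01%. In no case did the transplanted and sham libraries stay apart, which 2.11% of all genes tested did (1.15% higher and 0.96% lower in transplanted muscle). The shams differed among themselves: sham 12 stood above every transplanted library for 9 genes and sham 3 for 8, whereas sham 192 stood below every transplanted library for Fasn, Acly, Acaca and Elovl6. Fewer cells of a type and less RNA per cell cannot be told apart in whole muscle.

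**Figure D1:**
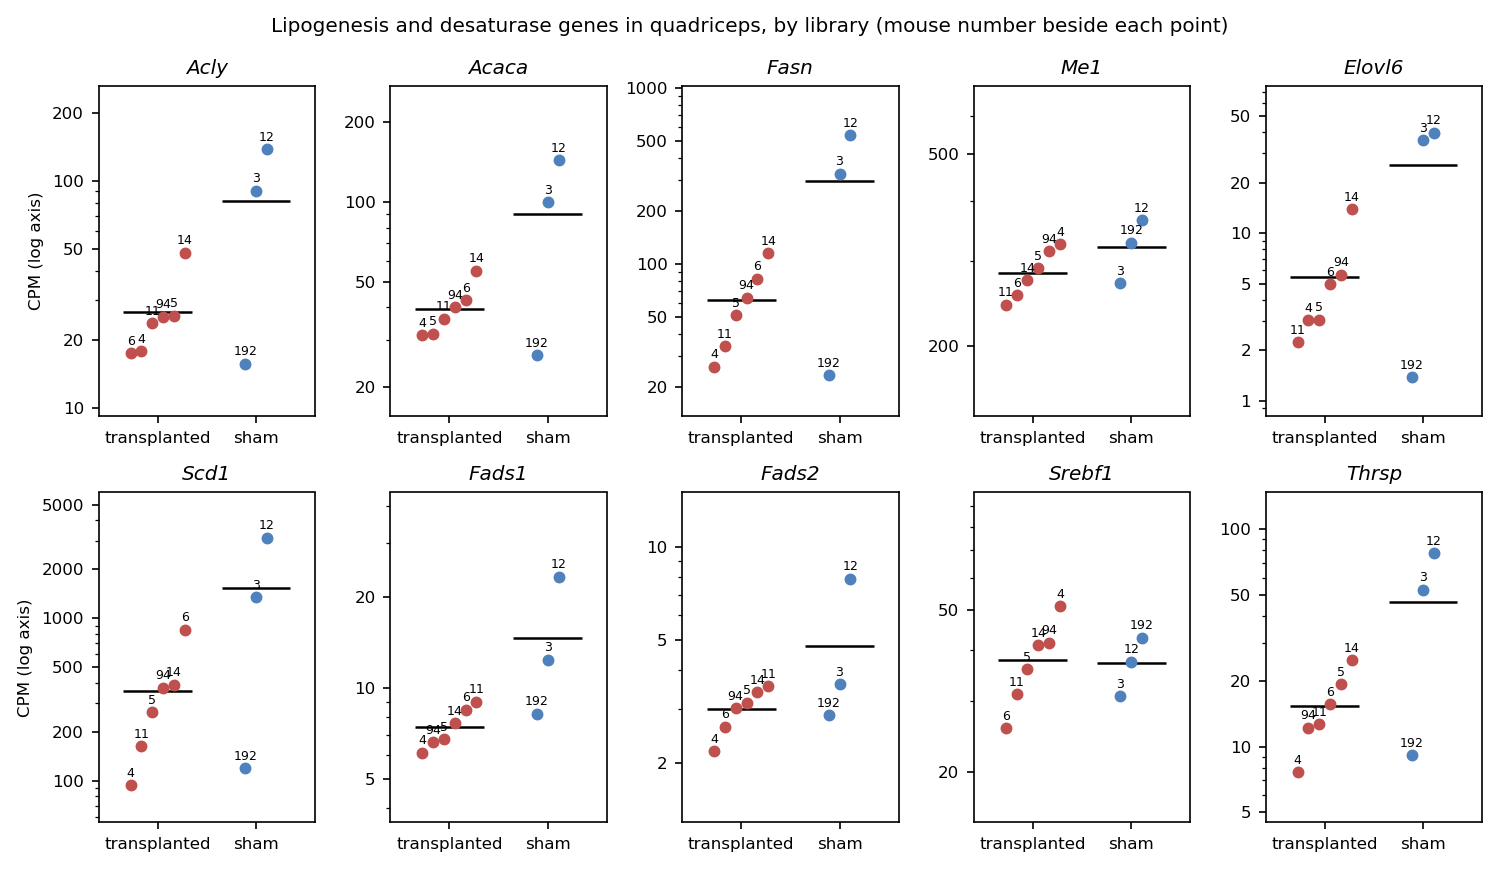
CPM of the 10 genes in each quadriceps library, on a log axis per gene, with transplanted libraries on the left and shams on the right; numbers are mice and lines are group means. Sham 12 and sham 3 lie above the transplanted libraries for 8 genes, with sham 192 within or below them, and Srebf1 and Me1 show little spread.

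Among the enzymes from citrate to palmitate, Acly (ENSMUSG00000020917.18) had 17.5 CPM in its lowest, 24.4 in its median and 48.4 CPM in its highest transplanted library, against 90.7 CPM in sham 3, 15.6 CPM in sham 192 and 138 CPM in sham 12. A pair of shams stood far above all transplanted libraries and the other just below them. The log2 difference, transplanted minus sham, was -1.61 ± 0.49 (SE; 6 against 3 libraries). Acaca (ENSMUSG00000020532.19) ranged over 31.4, 38.1 and 55.0 CPM (lowest, median, highest) in transplanted muscle, against 99.6 CPM in sham 3, 26.5 CPM in sham 192 and 144 CPM in sham 12, a difference of -1.17 ± 0.36. Its shams stood in the same order around the transplanted libraries as for Acly. Fasn (ENSMUSG00000025153.10) ranged over 26.0, 57.6 and 115 CPM in transplanted muscle, against 326 CPM in sham 3, 23.2 CPM in sham 192 and 540 CPM in sham 12. The palmitate-making enzyme thus spanned 23.3-fold between its highest and lowest quadriceps library, both of them shams, and its difference was -2.20 ± 0.66. The adjusted p of edgeR was 0.686 for Acly, Acaca and Fasn.

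Me1 (ENSMUSG00000032418.16), a supplier of NADPH, ranged over 243, 282 and 325 CPM in transplanted muscle, against 270 CPM in sham 3, 327 CPM in sham 192 and 364 CPM in sham 12. Its libraries overlapped in a narrow band, sham 192 was here on the high side, and the log2 difference was -0.17 ± 0.12 (edgeR adjusted p = 0.774). Without sham 12 the sign of this small difference turned, to 0.03. Of the 9 NADPH supply genes, 5 were lower and 4 higher in transplanted muscle, none passed the test, and the median was -0.02. At an unadjusted p under 0.05, 3 were lower and 0 higher, against 4.08% and 3.01% of all genes tested. Those furthest from 0 were enzymes of the pentose phosphate pathway. Tkt, transketolase, had means of 18.0 ± 6.88 CPM over the transplanted and 50.6 ± 39.1 CPM over the sham libraries (SD, n = 6 and 3), a difference of -1.48 ± 0.48. G6pdx, the glucose-6-phosphate dehydrogenase that opens that pathway, differed by -0.83 ± 0.26 and Pgd, which follows it, by -0.52 ± 0.19.

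Elovl6 (ENSMUSG00000041220.11), the elongase of palmitate, ranged over 2.24, 4.01 and 13.9 CPM in transplanted muscle, against 35.9 CPM in sham 3, 1.38 CPM in sham 192 and 39.7 CPM in sham 12. Counts were low in sham 192, with 26 reads, so its value is the least precise of these. The log2 difference was -2.27 ± 0.72, the largest in size of the 10. Scd1 (ENSMUSG00000037071.4), the stearoyl-CoA desaturase, ranged over 94.1, 319 and 851 CPM in transplanted muscle, against 1351 CPM in sham 3, 119 CPM in sham 192 and 3129 CPM in sham 12. It had the widest span of the set, 33.3-fold, with transplanted 4 lowest and transplanted 6 highest of the transplanted libraries. Its difference was -2.01 ± 0.69 (edgeR adjusted p = 0.686, as for Elovl6).

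Scd1 was the main stearoyl-CoA desaturase transcript of quadriceps by length-scaled level. Its share of the summed TPM of Scd1 and its close paralog Scd2 was 79.1% to 97.9% in transplanted muscle and 84.7% to 97.3% in sham muscle. Scd2 itself had a median of 32.7 CPM in transplanted muscle, against 44.9 CPM in sham 3, 24.5 CPM in sham 192 and 100.4 CPM in sham 12.

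The polyunsaturated fatty acid desaturases were less variable. Fads1 (ENSMUSG00000010663.6) ranged over 6.10, 7.20 and 8.99 CPM in transplanted muscle, against 12.4 CPM in sham 3, 8.22 CPM in sham 192 and 23.3 CPM in sham 12. Here sham 192 lay near the top of the transplanted libraries and not below them. The difference of -1.0 ± 0.20 was the largest of the 10 relative to its error (edgeR adjusted p = 0.686), and it passed with DESeq2 (adjusted p = 0.0203, with 0.0418% of genes called) and when genes of low count were kept (edgeR adjusted p = 0.0259, with 0.0454% called). Fads2 (ENSMUSG00000024665.9) ranged over 2.19, 3.07 and 3.54 CPM in transplanted muscle, against 3.59 CPM in sham 3, 2.86 CPM in sham 192 and 7.87 CPM in sham 12. Only sham 12 stood well above the others, and without it the difference of -0.69 ± 0.25 was -0.17. The difference for Fads1 was -0.60 without sham 12.

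The regulators behaved differently from each other. Srebf1 (ENSMUSG00000020538.16) ranged over 25.6, 38.4 and 51.1 CPM in transplanted muscle, against 30.8 CPM in sham 3, 42.7 CPM in sham 192 and 37.4 CPM in sham 12. All 3 shams lay inside the range of the transplanted libraries, and sham 3, high for Fasn and Scd1, was the lowest of them. The log2 difference was 0.06 ± 0.15 (edgeR adjusted p = 0.953), and its sign turned without sham 3 (-0.11) and without transplanted 4 (-0.03). Thrsp (ENSMUSG00000035686.9) ranged over 7.63, 14.2 and 25.0 CPM in transplanted muscle, against 52.8 CPM in sham 3, 9.12 CPM in sham 192 and 77.7 CPM in sham 12. It followed the order of the shams seen for Fasn, with a difference of -1.58 ± 0.46 (edgeR adjusted p = 0.686). Of the other 17 regulators of lipogenic transcription, 9 were lower and 8 higher, with a median of -0.06 and none past the test. At an unadjusted p under 0.05, 1 was lower and 1 higher, against 4.08% and 3.01% of all genes tested. Insig1, an SREBP target that holds SREBP in the endoplasmic reticulum, was the furthest from 0, at 13.3 ± 2.95 CPM over the transplanted and 25.8 ± 12.8 CPM over the sham libraries (-0.95 ± 0.26). Scap, the SREBP escort, differed by 0.22 ± 0.09 and Srebf2, the cholesterol-regulating relative of Srebf1, by -0.20 ± 0.11.

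Each deposited table gave its own answer on size. In the 2-sham table alone the differences were -1.36 ± 0.88 for Fasn, -1.37 ± 0.85 for Scd1 and -0.61 ± 0.22 for Fads1, with an edgeR adjusted p of 1 for each of the 10 genes. In the 1-sham table alone they were -3.27 ± 0.36 for Fasn, -2.87 ± 0.69 for Scd1 and -1.52 ± 0.18 for Fads1. That table has 1 sham, sham 12, the highest quadriceps library for 9 of the 10 genes, and its spread was assumed to be that of the transplanted libraries. The edgeR fit called 6 of the 10 lower there, where 0.148% of genes were called lower: Acly, Acaca, Elovl6, Thrsp, Fasn and Fads1. Those calls compare sham 12 with 3 transplanted libraries and are no test of sham muscle, since the spread between shams does not enter. The median over the 10 was -0.71 in the 2-sham table and -2.12 in the 1-sham table. It was -0.70 without sham 12, -1.84 without sham 192 and -1.09 without sham 3. Without sham 12 only the 2-sham table holds shams, so the value of -0.70 repeats that table's contrast and is no separate result. Without sham 192, Acaca passed (-1.62, edgeR adjusted p = 0.033, with 0.0272% of genes called lower).

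**Figure D2:**
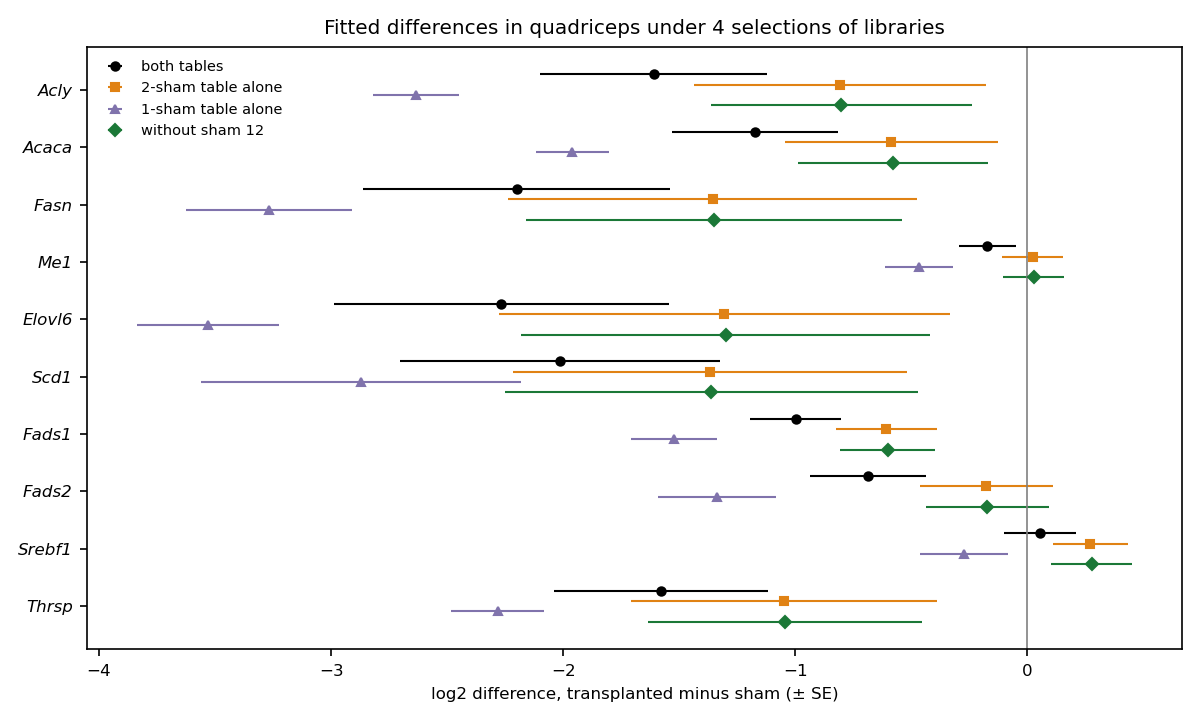
Log2 difference, transplanted minus sham, with its standard error, for each gene in both tables together, in each table alone and without sham 12. The 1-sham table lies furthest to the left for all 10 genes. Without sham 12 that table holds no sham, so with the table as a term it adds nothing to the difference. The points without sham 12 therefore nearly repeat those of the 2-sham table by design.

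Markers of adipocytes were high and low in much the same libraries. All 10 of 10 adipocyte markers were lower in transplanted muscle, as were 50.1% of all genes tested, with a median of -1.25. None passed the test, and 8 had an unadjusted p under 0.05 in that direction, against 4.08% of all genes tested. Their summed level was 115 to 474 CPM over the transplanted and 143 to 873 CPM over the sham libraries, with no marker at 0. Adipoq, the adipocyte hormone adiponectin, had 3.12, 8.71 and 31.9 CPM (lowest, median, highest) in transplanted muscle, against 21.8 CPM in sham 3, 6.31 CPM in sham 192 and 71.7 CPM in sham 12. As for Fasn, sham 12 was the highest library and sham 192 lay among the lowest. The order was not the same throughout: transplanted 6 had more Adipoq than sham 3, yet 82.4 CPM of Fasn against 326 CPM there. For each read of Adipoq, Fasn had 2.59 to 13.7 reads in transplanted muscle and 3.68 to 15.0 in sham muscle, so the ratio overlapped between groups. Relative to the sum of all 10 markers, Fasn was at 0.174 to 0.616 in transplanted muscle. That ratio was 0.826 in sham 3, 0.162 in sham 192 and 0.619 in sham 12. On this measure sham 3 stood above every transplanted library, sham 12 barely so, and sham 192 below them. The part of adipocyte RNA in the differences of the 10 genes was not tested.

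**Figure D3:**
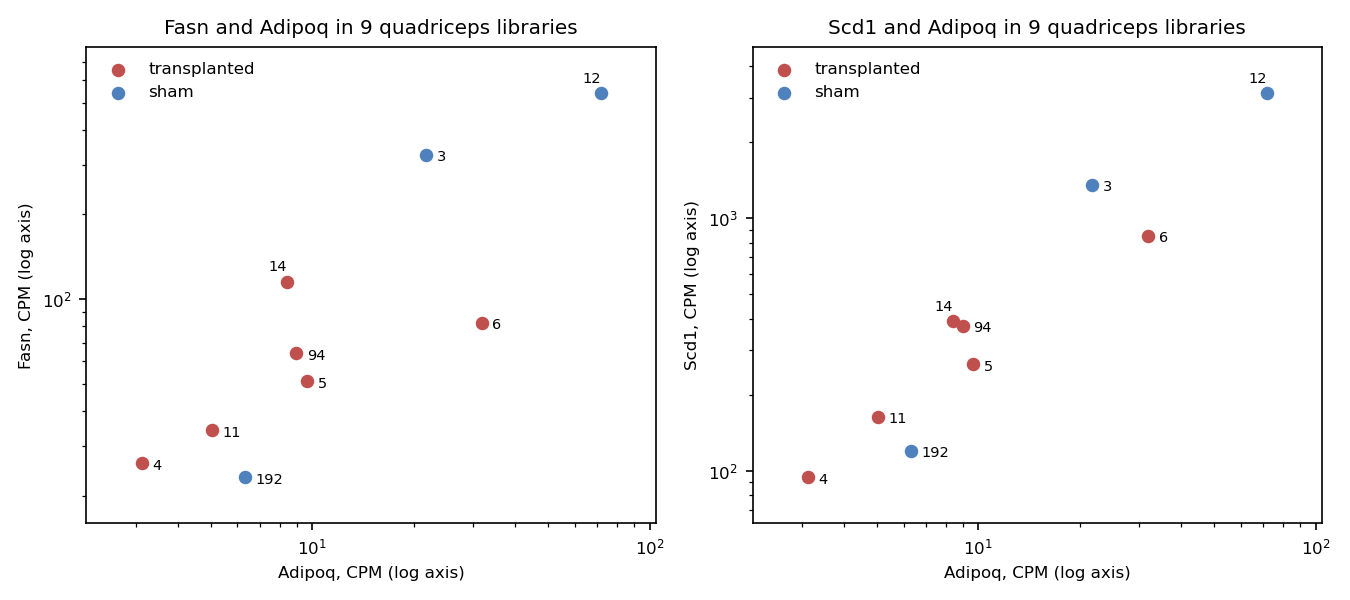
CPM of Fasn (left) and Scd1 (right) against CPM of Adipoq, both on log axes, 1 point per quadriceps library, with mouse numbers. Libraries with more Adipoq mostly have more Fasn and Scd1; transplanted 6 has 31.9 CPM of Adipoq with 82.4 CPM of Fasn.

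Of the brown adipocyte markers, Cidea differed by -2.05 ± 0.77 and Cox8b, which muscle also expresses, by 0.16 ± 0.15. Markers of other cell types had medians nearer to 0. Macrophage markers were lower in 5 of 5 (median -0.28), and markers of fibroadipogenic progenitors, the stromal cells that can become fat, in 6 of 7 (median -0.32). Of these progenitor markers 3 were lower at an unadjusted p under 0.05, against 4.08% of all genes tested, namely Dpp4, Dpt and Dcn. Dpp4 had 1.53 ± 0.490 CPM over the transplanted and 3.08 ± 0.262 CPM over the sham libraries (SD, n = 6 and 3), a difference of -0.98 ± 0.26. Its groups did not overlap, as for 0.96% of all genes tested that were lower. Dpt differed by -0.69 ± 0.22 and Dcn by -0.32 ± 0.10. Myofibre markers were higher in 7 of 7 (median 0.26), endothelial markers in 4 of 5 (median 0.06) and Schwann cell markers in 1 of 6 (median -0.12). No marker of these lists passed the test.

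Genes that do related work did not all go with the 10. Among 18 tested genes of fatty acid synthesis, elongation and desaturation outside the 10, 11 were lower and 7 higher in transplanted muscle, with a median of -0.03. Slc25a1, the mitochondrial citrate carrier that feeds Acly, had 5.65 ± 2.39 CPM over the transplanted and 16.5 ± 13.7 CPM over the sham libraries (-1.52 ± 0.53). Fads3, of the desaturase family, differed by -1.0 ± 0.28 and Hacd2, a dehydratase of chain elongation, by -0.94 ± 0.29. Of 11 tested genes of triglyceride synthesis 5 were lower and 6 higher (median 0.11). Agpat2, which adds the second acyl chain, was the furthest from 0, at -1.19 ± 0.51. Of 21 tested genes of cholesterol synthesis and uptake 17 were lower and 4 higher (median -0.23), led in size by Sqle, squalene epoxidase (-0.67 ± 0.37), and Acat2 (-0.65 ± 0.28). None of these genes passed the test. At an unadjusted p under 0.05, 5 of the 18, 2 of the 11 and 4 of the 21 were lower, against 4.08% of all genes tested. Higher at that level were 1, 0 and 0 of them, against 3.01%.

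How alike the libraries' profiles were was measured as the root mean square difference from Fasn in log2 CPM centred within each table, over 9 libraries and 14201 genes, whose median was 1.48. Among genes outside the 10, Pygl, the liver glycogen phosphorylase, was nearest (0.257), followed by Slc2a5, a fructose transporter (0.335), Rbp4, the retinol carrier (0.369), Slc25a1 (0.374) and Lctl (0.379). Slc2a5 and Lctl had few counts, with at most 2.54 CPM of Slc2a5 and 6.72 CPM of Lctl. Within the set Elovl6 (0.273) and Scd1 (0.366) were the nearest to Fasn, then Thrsp (0.532), Acly (0.592) and Acaca (0.736). Fads1 (1.08) and Fads2 (1.16) came later, at ranks 196 and 348 of the 14201 genes. Me1 (1.44) ranked at 4836, and Srebf1 (1.55) ranked at 11160, further from Fasn than the median gene. The highest library exceeded the lowest 28.8-fold for Elovl6, 10.2-fold for Thrsp, 8.84-fold for Acly, 5.44-fold for Acaca, 3.82-fold for Fads1 and 3.60-fold for Fads2, but 1.99-fold for Srebf1 and 1.5-fold for Me1. All of these were ranked on the same 9 libraries that the differences above use.

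The MuSC comparison asked how endogenous MuSCs differed after transplantation from those taken before it. Of the 10 genes 9 were tested, since Thrsp had 2 counts over the 3 libraries after and 4 over those before. In the fit, 6 were higher after transplantation, where 51.4% of the 13512 genes tested were higher, and 3 were lower, as were 48.6% of all, with a median of 0.23, against 0.02 over all genes tested. None passed the test, and neither did any other gene (percent called 0, 305 genes at an unadjusted p under 0.05, smallest edgeR adjusted p 0.873). The libraries after and before did not overlap for Fasn and Acly, which were higher after (3.35% of genes tested), and for Scd1, which was lower (2.98%), 6.33% of genes tested in all. At an unadjusted p under 0.05 stood Fasn, higher (1.55% of genes tested), and Scd1, lower (0.71%). Deposited TPM accounts for transcript length and was used without the TMM factors. On that scale Fasn and Acly overlapped and Scd1 alone did not. Which part of the scaling made this change was not tested.

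**Figure D4:**
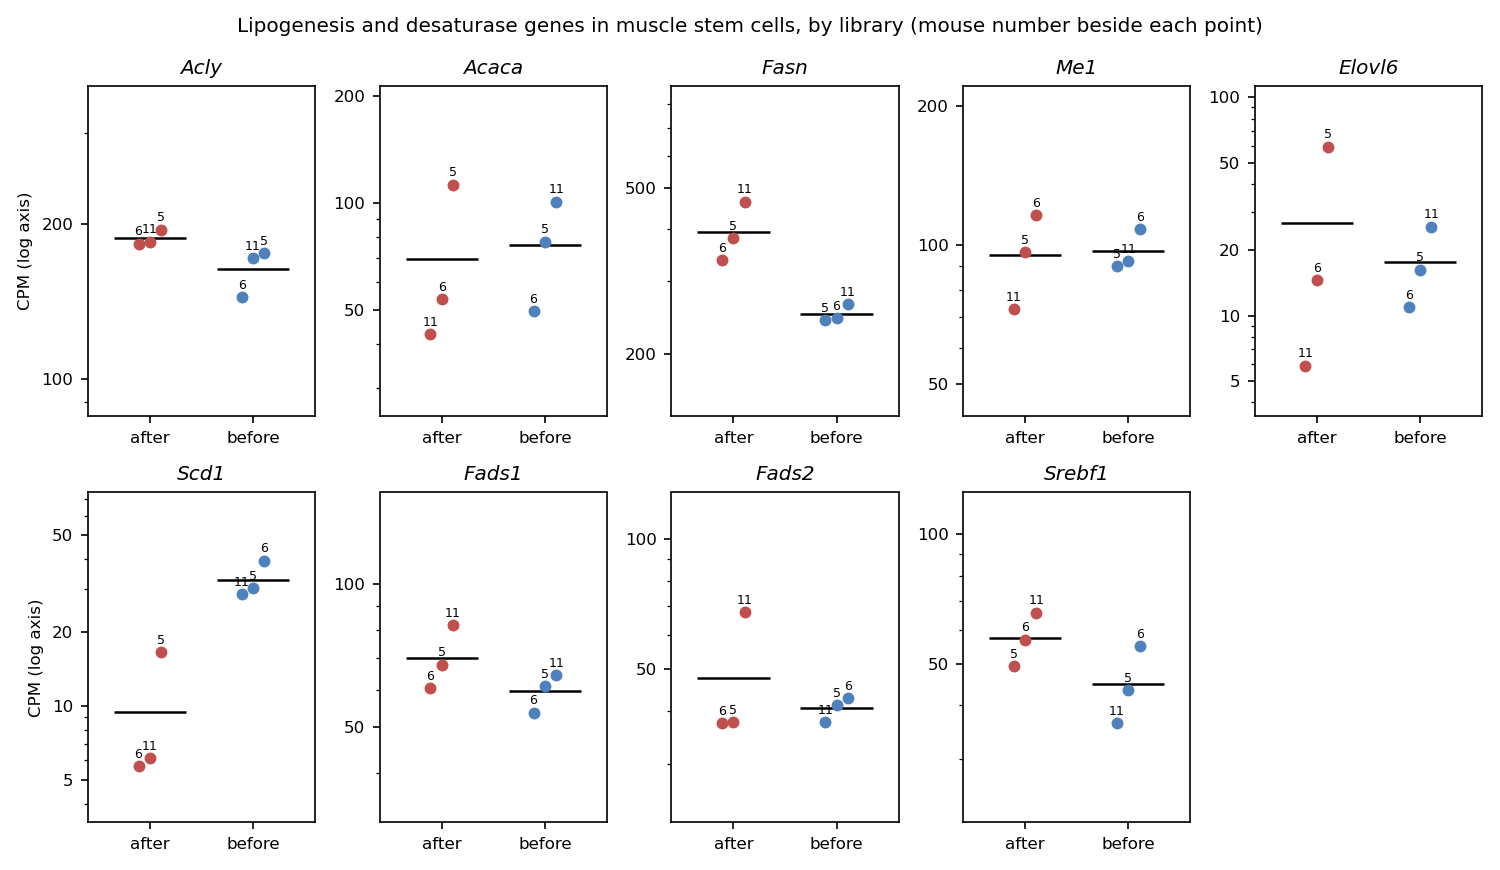
CPM of the 9 tested genes in each MuSC library, on a log axis per gene, with libraries after transplantation on the left and those before on the right; numbers are mice and lines are group means. Scd1 is lower in all 3 libraries after and Fasn higher, while Acaca and Elovl6 spread within each group.

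Scd1 had 16.6 CPM in after 5, 5.69 CPM in after 6 and 6.14 CPM in after 11, against 30.3 CPM in before 5, 39.2 CPM in before 6 and 28.6 CPM in before 11. Every library after lay below every library before, and after 5 came closest to them. The log2 difference, after minus before, was -1.79 ± 0.48 (SE; 3 libraries each), the largest in size of the 9, and Scd1 ranked at 27 by p among the genes tested. By mouse it was -0.87 in mouse 5, -2.78 in mouse 6 and -2.22 in mouse 11, and with the mouse as a replicate block it was -1.96 ± 0.50 (edgeR adjusted p = 0.901). In MuSCs Scd2 was the more abundant of these paralogs, with 482, 417 and 342 CPM in after 5, 6 and 11, against 551, 424 and 478 CPM in before 5, 6 and 11. Those groups overlapped, unlike those of Scd1. The share of Scd1 in the summed TPM of both was 3.76%, 1.53% and 2.81% in after 5, 6 and 11, against 5.89%, 10.2% and 7.37% in before 5, 6 and 11.

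Fasn had 379 CPM in after 5, 336 CPM in after 6 and 465 CPM in after 11, against 241 CPM in before 5, 243 CPM in before 6 and 263 CPM in before 11. The libraries before lay close together and all libraries after above them, a difference of 0.66 ± 0.26 (edgeR adjusted p = 0.873, as for Scd1). On TPM it had 118, 62.6 and 78.8 in after 5, 6 and 11, against 59.7, 45.3 and 83.4 in before 5, 6 and 11. On that scale before 11 stood above after 6 and after 11. Acly had 195, 183 and 184 CPM in after 5, 6 and 11, against 175, 144 and 171 CPM in before 5, 6 and 11. The gap between the groups was narrow, at 0.20 ± 0.23.

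Acaca and Elovl6 differed in opposite directions in different mice. Acaca had 113, 53.6 and 42.5 CPM in after 5, 6 and 11, against 77.8, 49.4 and 101 CPM in before 5, 6 and 11. Mouse 5 was thus higher after, mouse 6 about level and mouse 11 lower, with log2 differences of 0.53, 0.12 and -1.24. Elovl6 had 59.4, 14.5 and 5.90 CPM in after 5, 6 and 11, against 16.2, 10.9 and 25.6 CPM in before 5, 6 and 11. Its differences of 1.87, 0.41 and -2.12 ran in the same order, and the fitted 0.60 ± 0.80 was smaller than its error. Without after 5 it was -0.80. For both genes the libraries after 5, before 5 and before 11, whose names in the labels begin with a number, lay above the other 3, whose names begin with a letter. With that form of the name as a term the difference was 0.15 ± 0.22 for Acaca and 0.72 ± 0.49 for Elovl6, -1.77 ± 0.42 for Scd1 and 0.65 ± 0.21 for Fasn (edgeR adjusted p = 0.999 each). Whether the name form marks a preparation is not stated in the labels, and its part in these values was not tested further.

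The other genes differed little. Fads1 had 67.7, 60.4 and 81.9 CPM in after 5, 6 and 11, against 61.0, 53.7 and 64.3 CPM in before 5, 6 and 11 (0.23 ± 0.25). Fads2 had 37.5, 37.4 and 67.7 CPM in after 5, 6 and 11, against 41.2, 42.7 and 37.6 CPM in before 5, 6 and 11 (0.23 ± 0.32). Only after 11 stood out for Fads2, and without it the difference was -0.11. Srebf1 had 49.2, 56.9 and 65.7 CPM in after 5, 6 and 11, against 43.4, 55.0 and 36.4 CPM in before 5, 6 and 11 (0.35 ± 0.27). Me1 had 96.5, 116 and 72.6 CPM in after 5, 6 and 11, against 89.9, 108 and 92.3 CPM in before 5, 6 and 11 (-0.03 ± 0.27). The groups overlapped for each of these 4 genes.

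Of the adipocyte markers, Lep, Retn, Cfd, Plin1 and Cidec had 0 counts in every MuSC library. The 10 markers summed to 4.84 to 18.3 CPM after and 4.56 to 7.46 CPM before. The 3 tested markers, Fabp4, Pparg and Lipe, were higher after in the fit (median 0.61), as were 51.4% of all genes tested. Fabp4 reached 14.7 CPM in after 11. The groups overlapped for Fabp4 and Pparg but not for Lipe, as for 3.35% of genes tested that were higher. Myofibre markers summed to 461 to 3669 CPM after and 1945 to 6028 CPM before, with 7 of 7 lower after (median -0.72). Schwann cell markers summed to 12.1 to 21.5 CPM after and 6.31 to 9.98 CPM before, ranges that did not overlap, with Sox10 at 0 in every library. Fibroadipogenic progenitor markers summed to 9.35 to 244 CPM after and 1.93 to 10.9 CPM before. Nearly all of that was Smoc2, with 241, 30.1 and 8.94 CPM in after 5, 6 and 11, while Dcn, Lum and Dpp4 were at 0 in every library. Endothelial markers summed to 1.01 to 6.49 CPM after and 1.31 to 1.68 CPM before, and macrophage markers to 2.77 to 5.90 CPM after and 2.12 to 5.94 CPM before. No marker of these lists passed the test, and their part in the values was not tested.

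In the lists around the 10 genes, no gene passed the test in MuSCs. Of 9 NADPH supply genes 6 were higher after and 3 lower (median 0.43). Tkt averaged 68.4 ± 23.9 CPM after and 32.8 ± 5.06 CPM before (SD, n = 3 each; 1.06 ± 0.35), and G6pdx 99.4 ± 18.6 CPM after and 59.4 ± 18.7 CPM before (0.74 ± 0.32). Of 20 other genes of fatty acid synthesis, elongation and desaturation 13 were higher and 7 lower (median 0.15), and Acacb, the mitochondrial acetyl-CoA carboxylase, was the furthest from 0 (-0.85 ± 0.46). Triglyceride synthesis genes were higher in 8 of 12 (median 0.25). Dgat2, which completes triglycerides, was at 23.1 ± 24.8 CPM after and 7.79 ± 2.07 CPM before (1.56 ± 0.81). Regulators of lipogenic transcription were higher in 11 of 16 (median 0.12), and genes of cholesterol synthesis and uptake in 10 of 22 (median -0.01). Lss, lanosterol synthase, stood out there at 1.10 ± 0.43.

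The genes whose MuSC profile was most like that of Fasn were others than in muscle: Lpcat1, a lysophospholipid acyltransferase (0.0718), Ybey (0.0905), Cdc6, a DNA replication licensing factor (0.107), Aldh9a1 (0.116) and Hmgb2, a chromatin protein (0.121). The measure was the same root mean square difference, over 6 libraries and 13383 genes, whose median was 0.591. Within the set Fads1 (0.220), Srebf1 (0.274) and Acly (0.277) were the nearest, and Elovl6 (1.13) and Scd1 (1.41) the furthest. Elovl6 and Scd1 were the nearest to Fasn in quadriceps.

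Levels of different genes were compared as deposited TPM. The tables were quantified separately, so MuSC and muscle levels stand side by side with no test. In MuSCs after transplantation Fasn averaged 86.5 ± 28.5 TPM, Acly 49.5 ± 15.4, Me1 33.5 ± 11.7 and Fads1 23.4 ± 6.73 TPM (SD, n = 3). Before transplantation Fasn averaged 62.8 ± 19.2 TPM, Acly 50.3 ± 14.7, Me1 38.2 ± 4.28 and Fads1 23.0 ± 6.37 TPM. Fasn thus headed both MuSC groups, by more than the larger SD of the neighbouring genes after but not before. Fads2, Srebf1 and Acaca followed at 14.8 to 16.8 TPM after and 16.2 to 18.1 TPM before, in an order within their spread. Elovl6 averaged 6.36 ± 8.20 TPM after and 4.11 ± 2.23 TPM before. Scd1 averaged 2.63 ± 2.12 TPM after and 9.20 ± 0.583 TPM before, and Thrsp was last in both groups, at 0.0367 ± 0.0351 TPM after and 0.0800 ± 0.0436 TPM before. Me1 stood above Fads1 beyond their spread before but not after, and Scd1 above Elovl6 beyond it before, while Elovl6 and Scd1 lay within it after.

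Quadriceps had another order. In transplanted muscle Me1 averaged 103 ± 18.8 TPM and Scd1 86.1 ± 64.1 TPM, which did not differ beyond their spread. Fasn (19.6 ± 9.29 TPM), Thrsp (16.9 ± 7.30), Srebf1 (13.3 ± 4.08) and Acly (9.58 ± 3.70) followed, neighbours within their spread. Below them Acaca (5.56 ± 1.84 TPM) and Fads1 (2.63 ± 0.260) were each apart from the next gene by more than the larger SD, and Fads2 (1.15 ± 0.181) and Elovl6 (1.09 ± 0.923) came last, within their spread. In sham muscle Scd1 averaged 426 ± 448 TPM and Me1 132 ± 29.8 TPM, and no pair of neighbours in the order differed beyond their spread. For Scd1 the 3 shams lay far apart, at 333 TPM in sham 3, 32.0 TPM in sham 192 and 914 TPM in sham 12. Thrsp, near absent from MuSCs, had 8.28 to 29.5 TPM in transplanted muscle, and 60.1 TPM in sham 3, 11.2 TPM in sham 192 and 102 TPM in sham 12.

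**Figure D5:**
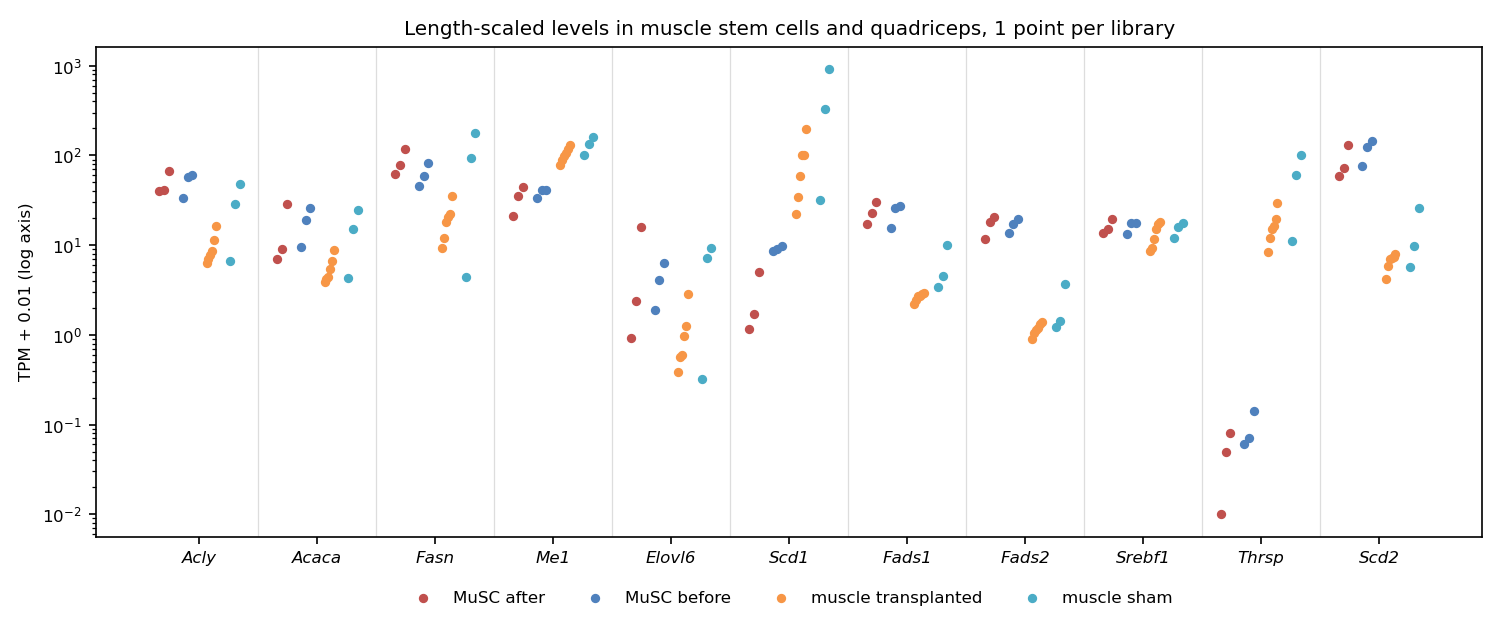
Deposited TPM plus 0.01, on a log axis, of the 10 genes and Scd2, 1 point per library in the 4 groups. Scd1, Thrsp and Me1 are higher in muscle and Fasn, Acly, Fads1, Fads2 and Scd2 mostly higher in MuSCs, with sham 3 and sham 12 reaching MuSC levels of Fasn.

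The scale mattered in MuSCs. On TPM, 7 of the 10 genes had a lower mean after than before, and on FPKM, a deposited value scaled for length and mapped reads, 4 had. Some of the 7 differed by little, as Fads2 (16.83 TPM after, 16.89 before), Srebf1 (16.0 and 16.2) and Acly (49.5 and 50.3). Shares over all genes were not computed on these scales, so the counts say nothing particular to the 10. All 10 had a higher mean TPM in the 3 libraries with a number first in their name than in the 3 with a letter first, for example 61.6 against 38.2 TPM for Acly. On CPM this held for genes such as Acaca and Elovl6 but not for all. Srebf1 went the other way, with 49.2, 43.4 and 36.4 CPM in after 5, before 5 and before 11. In after 6, after 11 and before 6 it had 56.9, 65.7 and 55.0 CPM. The count by name form was not made over all genes, so it is not known to be particular to the 10. Scd1 was lower after than before on CPM and on TPM alike.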

How the data were processed

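The authors deposited 3 tables, 1 of MuSCs and 2 of quadriceps, holding estimated counts, TPM and FPKM per gene and library, per the file headers. Estimated counts, as deposited, were rounded to whole numbers before testing; Acaca and Me1 had fractional values in 15 of 15 libraries and Scd1 in 4, so these values are less certain. The cause of the fractions was not tested. TPM and FPKM are the authors' deposited values and were used for levels only. Aligner, quantifier and strand use: not given in the sources used here. GRCm38 and mm10 are named in the submitters' processing notes, but 0 of the 10 genes had the start given by RefSeq's GRCm38.p6 table, so no coordinates of the files are printed. Another 3 columns matched no sample's labels and were not used.

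Groups came from the labels' titles. edgeR 4.0.16 (R 4.3.3) tested all genes of a comparison with filterByExpr (minimum count 10), TMM scaling, the quasi-likelihood test, 2-sided, and Benjamini-Hochberg adjustment over all genes tested, with a threshold of 0.05. Quadriceps had the table as a term, MuSCs no covariate. The standard error is the log2 difference over the root of F. The scripts were tested on simulated data. Alternatives were DESeq2 1.42.0, its size factors, no filter, each table alone, no table term, the name form as a term, the mouse as a block, and leaving out each library.

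The 10 genes, the lists and the tests were chosen with earlier results of these data known. Named were all 10 genes, up to 3 genes of each list with the largest log2 difference, the cell type markers, and the 5 genes most like Fasn in each tissue; Adipoq and Scd2 were singled out after their values were seen. The shared mouse numbers 5, 6 and 11 were taken to pair the MuSC libraries because the cells are autologous. Over genes, the deviation of a library from its group mean correlated with that of the same mouse at 0.30 (mouse 5), 0.36 (6) and -0.40 (11). Libraries of different mice reached higher values, with 0.55 for before 6 against after 11. For before 11 against after 5 the correlation was 0.49. Of the libraries after transplantation, after 6 alone correlated best with its own mouse. The correlations thus did not favour pairs of the same number, and the values by mouse and the mouse block rest on the labels. No library repeated another: within a group and table, chi-square over its degrees of freedom was 18.2 to 506. Beyond their numbered titles the labels do not say that each library is a separate animal, so p-values measure the spread between these libraries.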

Additional observations from a re-analysis of the deposited data

Results flagged for a closer look

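Among the 6 transplanted quadriceps libraries, transplanted 14 stood apart for Acly and Elovl6. Acly had 48.4 CPM there, against 25.5 CPM in the next library, a gap of 0.740 of the group's range. Elovl6 had 13.9 CPM, against 5.64 CPM in the next, a gap of 0.708 of the range. Dixon's 95% critical value for 6 libraries is 0.625, and chance exceeds it in about 1 in 20 groups. All 10 genes were screened, at both ends and on CPM without logs, so that rate is for a single gene and not for the screen. Acly and Elovl6 both had quadriceps profiles near that of Fasn, so their flags are not separate events. Both values of transplanted 14 lay below those of sham 3 and sham 12. In the same library Fasn (115 CPM) and Thrsp (25.0 CPM) were also the highest of the transplanted libraries.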

How the results depend on the processing

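Over the alternatives run, 227 of 249 values of single genes kept their direction and side of the threshold, 9 came to pass it and 13 turned in sign. In quadriceps no gene passed in the fit of both tables, while the calls were 6 with DESeq2, 12 with no filter, 1 in the fit of the 2-sham table and 41 in that of the 1-sham table, and leaving out a library gave 0 to 4, with 2 without transplanted 94 and 4 without sham 192. The median of the 10 genes ranged from -1.84 to -0.70 with a library left out. Signs turned for Me1 (0.023 in the 2-sham table; -0.29 to 0.028 with a library left out, positive without sham 12) and Srebf1 (-0.27 in the 1-sham table; -0.11 to 0.28, with -0.11 without sham 3 and -0.03 without transplanted 4). In MuSCs DESeq2 called 16 genes, none of them among the 10, and the other alternatives 0. Leaving out after 5 moved the MuSC fit most at the unadjusted level. Without it, 3545 of 13846 genes had an unadjusted p under 0.05, against 305 of 13512 in the main fit. The smallest edgeR adjusted p was then 0.187, against 0.873, and Scd1 differed by -2.48. The median there was 0.14 to 0.33 with a library left out, and 0.15 without after 5 and 0.14 without after 11. With a library left out, signs turned for Acaca (-0.68 to 0.13, positive without after 6, after 11 or before 11), Elovl6 (-0.80 to 1.07, negative without after 5), Fads2 (-0.11 to 0.38, negative without after 11) and Me1 (-0.20 to 0.14, positive without after 11 or before 6), and for Acaca with the name form as a term (0.15). The replicate block changed no call (0 genes called, median 0.17). FPKM in place of TPM gave 4 in place of 7 genes with a lower mean after. The causes were not tested. No paired analysis was possible because the transplanted and sham quadriceps share no mouse number. Elovl6 and Fads2 rest on few counts in quadriceps, and 3 shams that differ widely limit the precision there.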
